A study of Mus musculus with 6 samples.

Results

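*Trp53*, the mouse gene for the tumour suppressor p53, and 9 genes that p53 is known to switch on were followed in RNA sequencing of mouse hepatocytes, the main cells of the liver. The 10 genes were *Trp53*, *Mdm2*, *Ccng1*, *Bbc3*, *Bax*, *Fas*, *Trp53inp1*, *Zmat3*, *Phlda3* and *Eda2r*. They were chosen by symbol, and all 10 were found among the 55487 gene rows of the count tables and among the 12741 genes that could be tested. A further 91 genes of the pathway (regulators of p53, other targets and cell cycle genes that it represses) were read beside them.

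The hepatocytes came from adult mice of 6 to 8 weeks of 2 genotypes. One was wild type (WT), and the other carried on both alleles AEG-1-C75S, a form of the protein AEG-1 (gene *Mtdh*) in which cysteine 75 is replaced by serine, the residue to which palmitate is attached. Gene counts do not read the changed codon, so the genotype labels were not checked by the data. Both genotypes were bred from heterozygotes and carried the treatment label Control, so no DNA damage or other stimulus of p53 was part of the labelled design. RNA was taken 48 h after the cells were isolated. All libraries shared this, and the effect of isolation and of the time after it on the p53 genes was not tested. There were 3 libraries per genotype; strain and sex are not given in the sources used here, and whether each library is a mouse of its own is not stated, so p-values measure the spread between libraries, which may be technical.

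p53 is a transcription factor that is held at a low level by MDM2, a ubiquitin ligase that marks it for destruction and is itself a p53 target, which closes a feedback loop. When DNA damage or another stress frees p53, it binds paired decamers in the promoters or introns of its targets and raises genes for cell cycle arrest, repair and cell death. Because control is largely at the protein, *Trp53* mRNA need not follow p53 activity, and target mRNAs are the usual readout.

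The element that p53 binds was looked for in RefSeq promoter windows of GRCm38.p6, which hold 250 bases before and 50 bases after a transcription start. The p53 consensus response element, a run of 20 bases made of 2 adjacent decamers, was searched with at most 1 mismatch; its sequence reads alike on both strands. It was present in 29 of 32851 windows (0.0883%). Of the 10 genes 8 had a window, with *Trp53inp1* and *Zmat3* not matched, and 1 of the 8, *Ccng1*, held an element. Of 40 other target genes with a window 3 did: *Cdkn1a*, *Rps27l* and *Gtse1*. The 250 bases before the start are shown for *Ccng1*, the one member of the 10 with an element, and for the outermost start of *Cdkn1a*. *Cdkn1a* is a target whose difference between the genotypes was marginal, as given below. Capitals mark the element.

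*Ccng1*, chr11:40755287-40755536, minus strand: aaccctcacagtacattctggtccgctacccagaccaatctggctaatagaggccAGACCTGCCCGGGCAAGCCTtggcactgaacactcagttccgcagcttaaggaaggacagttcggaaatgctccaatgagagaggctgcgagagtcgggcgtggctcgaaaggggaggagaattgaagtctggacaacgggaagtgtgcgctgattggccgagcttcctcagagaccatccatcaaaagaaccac
*Cdkn1a*, chr17:29090729-29090978, plus strand: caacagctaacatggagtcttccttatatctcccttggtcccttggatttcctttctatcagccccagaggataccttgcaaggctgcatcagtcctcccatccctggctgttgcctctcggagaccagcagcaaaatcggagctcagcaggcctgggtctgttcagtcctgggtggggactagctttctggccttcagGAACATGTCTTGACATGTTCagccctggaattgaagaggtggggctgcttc

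The elements themselves are set side by side, since they are the shared feature of these 4 targets.
*Ccng1*, chr11:40755462-40755481: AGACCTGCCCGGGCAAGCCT
*Cdkn1a*, chr17:29090928-29090947: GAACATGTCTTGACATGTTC
*Rps27l*, chr9:66946296-66946315: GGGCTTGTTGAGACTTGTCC
*Gtse1*, chr15:85859945-85859964: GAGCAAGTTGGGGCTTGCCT

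The element of *Ccng1* lay 195 to 176 bases before the start, and that of *Cdkn1a* 51 to 32 bases before its outermost start. The window of the other *Cdkn1a* start, chr17:29093519-29093818, held no element. Its best match had 5 mismatches, and it had no single decamer without a mismatch. A single decamer without a mismatch was found in 4 of the 8 genes (*Trp53*, *Mdm2*, *Ccng1* and *Bax*), against 9.55% of all genes with a window. By window it was 4 of the 10 windows of these genes, against 8.36% of all windows. The p53 sites known for *Mdm2* lie in its first intron, outside such a window. A match is a description of letters and not a measured binding site.

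The libraries held 16944723 to 21044292 counts on genes, with C75S replicate 1 the shallowest, and 3 counts were worth 0.142 to 0.172 CPM (CPM, the count scaled to a common library size after TMM normalisation). The 10 genes together took 27313 to 37523 counts per library. Hepatocyte markers were high in every library, summing to 67033 to 79995 CPM in C75S and 75150 to 82881 CPM in WT over 10 genes, with *Alb* the main part. Markers of other liver cells were mixed. Of their 33 genes 15 could be tested, and 5 were above 20 CPM in every library: *Cd68* (94.9 to 138 CPM, of Kupffer cells and other macrophages), *Spp1* (83.9 to 157) and *Sox9* (27.5 to 31.4), listed for cholangiocytes, *Reln* (49.9 to 88.1, stellate cells) and *Stab2* (20.5 to 32.7, endothelium). Other defining ones were at or near 0: *Adgre1* and *Timd4* of Kupffer cells had at most 1 count in a library, and *Cftr* of cholangiocytes and *Cd3e* of lymphocytes had 0. WT replicate 1 was the highest of the 6 libraries in 7 of the 10 p53 genes, while it was the highest in 21.1% of all tested genes. The 7 were *Trp53*, *Mdm2*, *Ccng1*, *Bbc3*, *Trp53inp1*, *Zmat3* and *Phlda3*. In 3 of them it led by little. *Trp53inp1* was at 866.8 CPM against 865.7 in WT replicate 2. *Zmat3* was at 98.4 against 98.1 and *Bbc3* at 25.4 against 25.2, both in C75S replicate 2. Without WT replicate 1 the log2 estimates of *Ccng1*, *Zmat3* and *Eda2r* were 0.01, 0.03 and 0.01 and that of *Bbc3* was 0.12, and no call among the 10 genes changed.

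Length-scaled levels (CPM per kilobase of annotated exon) placed 2 targets far above the rest. The length pools the exons of all annotated transcripts of a gene, and the order and overlaps given here depend on that choice. It was 5083 bases for *Mdm2* and 11435 for *Zmat3*, whose longest transcripts have 3145 and 7797 bases. In WT *Trp53inp1* was at 134 ± 0.28 and *Ccng1* at 105 ± 4.67 CPM per kilobase (SD, n = 3), and no WT library of the second reached the first. *Bax* followed at 42.1 ± 2.50. *Mdm2* at 25.6 ± 1.52, *Trp53* at 22.4 ± 2.87 and *Phlda3* at 19.8 ± 2.50 formed a middle group in which each overlapped the next. *Bbc3* was at 11.2 ± 1.05. *Zmat3* at 8.27 ± 0.29, *Eda2r* at 7.48 ± 0.69 and *Fas* at 6.71 ± 0.33 were lowest, again each overlapping the next. In C75S *Trp53inp1* was at 108 ± 3.62 and *Ccng1* at 103 ± 2.76 CPM per kilobase, so that over all 6 libraries these 2 genes overlapped.

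**Figure D1:**
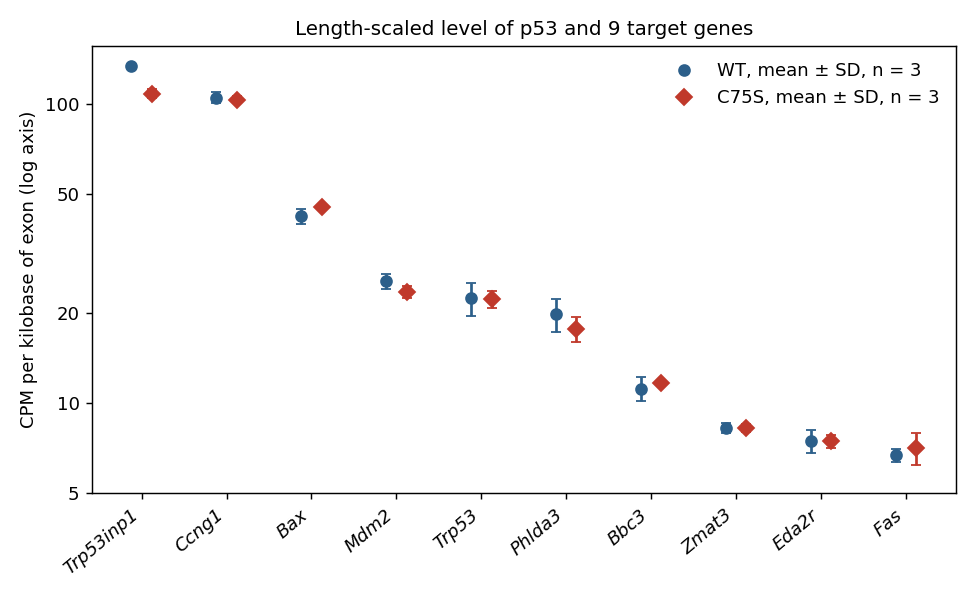
Level of each gene in CPM per kilobase of exon (log axis), mean ± SD of 3 WT libraries (blue circles) and 3 C75S libraries (red diamonds). The genes are ordered by their WT level, from *Trp53inp1* at 134 to *Fas* at 6.71, and the symbols of the 2 genotypes part most clearly for *Trp53inp1*.

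Of the 10 genes 1 differed between the genotypes. *Trp53inp1* fell in C75S by 19.1% (95% interval -24.8% to -13.0%), and the other 9, *Trp53* itself among them, did not pass the test. The test was edgeR's quasi-likelihood test with Benjamini-Hochberg adjustment over all 12741 genes at a threshold of 0.05, which called 3.11% of all genes, 1.37% as lower and 1.74% as higher in C75S. With 10 genes, 1 call is a result about that gene and not about the group. The median log2 fold change of the 10 genes was -0.005, beside -0.003 for all tested genes, and 3 of the 10 estimates were above 0.

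*Trp53inp1* (ENSMUSG00000028211, chromosome 4, 11156431 to 11174379, plus strand, GRCm38) encodes a stress-induced nuclear protein that promotes p53 phosphorylation and also takes part in autophagy. It was measured at 717, 673 and 710 CPM in C75S replicates 1, 2 and 3 and at 867, 866 and 863 CPM in WT replicates 1, 2 and 3. Every C75S library lay below every WT library, and the WT libraries lay within 4 CPM of each other. The means were 699.97 ± 23.5 CPM in C75S and 865 ± 1.80 CPM in WT (SD, n = 3 each). The log2 fold change was -0.31 (SE 0.05, edgeR adjusted p = 0.000607), the 70th smallest p-value of all genes. The call held in each of 14 alternative fits, with log2 fold changes from -0.32 to -0.28 and a highest adjusted p of 0.0105, from edgeR without WT replicate 2. With 12485 to 18258 counts per library, counting error was small for this gene. Groups that do not overlap, with C75S lower, were seen in 8.96% of all tested genes.

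Cholangiocyte markers were the one list of another cell type whose summed level separated the genotypes as *Trp53inp1* did, in the opposite direction: 6 genes summed to 144 to 197 CPM in C75S and 122 to 133 CPM in WT. Of its 4 tested genes 3 had estimates above 0, beside 49.1% of all tested genes. By edgeR 2 of the 4 had an unadjusted p under 0.05, beside 13.4% of all genes. In 2 the genotypes did not overlap, C75S being higher, as in 9.02% of all tested genes. Called was 1, beside 3.11% of all genes. It was the keratin *Krt19*, at 9.52 ± 1.22 (C75S) and 5.47 ± 0.26 CPM (WT) (SD, n = 3 each, edgeR adjusted p = 0.00151). Most of the summed level of the list was *Spp1*, which was not called. *Epcam* was at 0, 1 and 2 counts in C75S and at 12, 3 and 4 in WT. The part of these cells in the results was not tested. Stellate cell markers summed to 53.4 to 70.3 CPM in C75S and 68.6 to 91.6 CPM in WT, which overlap, and most of that sum was *Reln*. Endothelial markers summed to 33.4 to 43.6 and 32.2 to 42.4 CPM, and most of that sum was *Stab2*. Of 6 tested endothelial genes 5 had estimates above 0, beside 49.1% of all tested genes, with a median log2 fold change of 0.51. *Pecam1*, *Kdr* and *Lyve1* were higher in every C75S library than in any WT library, as in 9.02% of all tested genes. By edgeR 2 of the 6 had an unadjusted p under 0.05, beside 13.4% of all genes, and 0 were called. Counts were low, at 10 to 20 per library for *Kdr*. *Pecam1* was at 3.19 CPM on average in C75S and 1.97 in WT, and *Lyve1* at 2.47 and 1.36. The part of these cells in the results was likewise not tested. Kupffer cell markers summed to 96.1 to 140 and 102 to 134 CPM, and most of that sum was *Cd68*, also a gene of other macrophages. Of these 8 genes 2 could be tested and 0 were called. Of the 10 hepatocyte markers 5 had estimates above 0 and 5 below. Called were 2, both higher in C75S without overlap. *Cyp2e1* was at 114 ± 3.64 (C75S) and 92.0 ± 10.5 CPM (WT) (SD, n = 3 each, edgeR adjusted p = 0.00908). *Fga* was at 478 ± 42.1 and 397 ± 16.2 CPM (SD, n = 3 each, edgeR adjusted p = 0.00852). C75S replicate 1 was the lowest library in 6 of the 10 hepatocyte markers, beside 18.4% of all tested genes. In such bulk samples fewer cells of a type and less RNA per cell cannot be told apart.

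**Figure D2:**
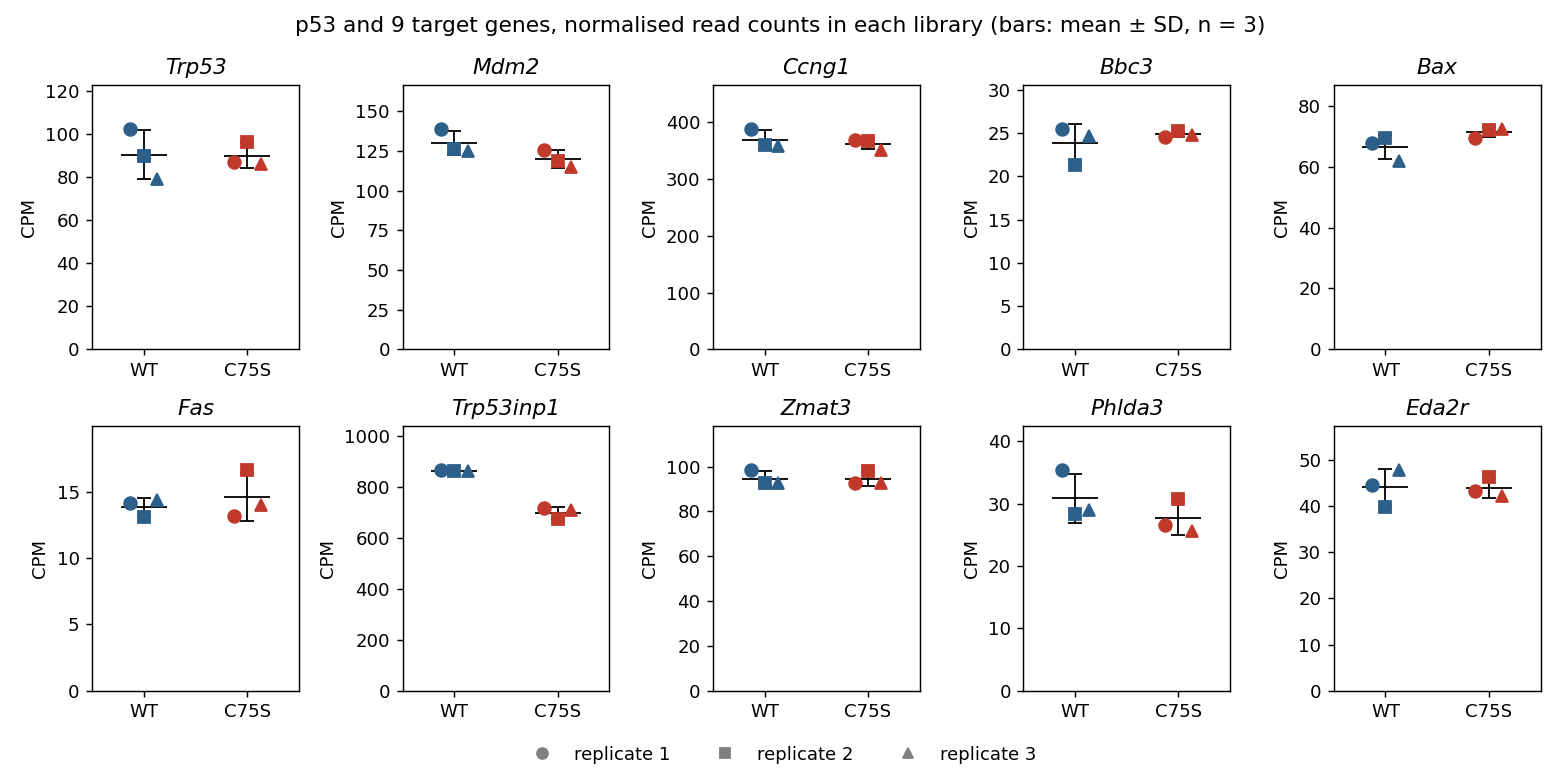
Normalised read counts (CPM, axes from 0) of the 10 genes in each library; circles, squares and triangles are replicates 1, 2 and 3, blue for WT and red for C75S, and bars give the mean ± SD. The *Trp53inp1* panel shows 3 C75S libraries between 673 and 717 CPM below 3 WT libraries between 863 and 867 CPM, while in 8 of the other panels the genotypes overlap and in *Bax* they part by less than 1 CPM.

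*Trp53* (ENSMUSG00000059552, chromosome 11, 69580359 to 69591873, plus strand) was at 87.3, 96.6 and 86.3 CPM in C75S and at 102, 90.1 and 79.3 CPM in WT. The highest and the lowest library were both WT, so the genotypes overlapped fully. The log2 fold change was -0.01 (SE 0.08, edgeR adjusted p = 0.978), with a 95% interval of the change from -11.2% to 11.5%. Without WT replicate 1 the estimate was 0.09 and without WT replicate 3 it was -0.09, both uncalled. A stretch of 353 bases of its longest transcript, 10.8% of the length, is 97.7% identical to the pseudogene *Trp53-ps*, and reads from that stretch may have been lost as multimapping. Its relatives *Trp63* and *Trp73*, and *Cdkn2a*, whose product ARF blocks MDM2, had 0 counts in all 6 libraries, which allows up to 3 counts, or 0.142 to 0.172 CPM, in each.

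*Mdm2* (chromosome 10, 117688875 to 117710758, minus strand), the feedback ligase, was at 126, 119 and 115 CPM in C75S and at 139, 126 and 125 CPM in WT. The values overlapped only through C75S replicate 1, which lay between the 2 lowest WT libraries. The log2 fold change was -0.12 (SE 0.05), with an unadjusted p of 0.0398 and an edgeR adjusted p of 0.333; 13.4% of all genes had an unadjusted p under 0.05. Without WT replicate 1 the estimate was -0.07 (adjusted p = 0.651). *Ccng1* (chromosome 11, 40748552 to 40755311, minus strand) encodes cyclin G1, which recruits a phosphatase that activates MDM2. It was at 368, 367 and 351 CPM in C75S and at 388, 360 and 358 CPM in WT, which gave a log2 estimate of -0.03 (SE 0.05; adjusted p = 0.884 by edgeR). The 95% interval of that change, -8.58% to 5.44%, was among the narrowest of the 10 genes.

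None of the members that act in cell death was called. *Bax* (chromosome 7, 45461697 to 45466898, minus strand), which makes pores in the outer mitochondrial membrane, was at 69.4, 72.0 and 72.3 CPM in C75S and at 67.8, 69.3 and 61.8 CPM in WT. Its genotypes did not overlap, by a margin of less than 1 CPM, as in 9.02% of all genes with C75S higher; the log2 estimate was 0.10 (SE 0.06; adjusted p = 0.466 by edgeR). *Bax* overlaps the predicted gene *Gm45808* on its own strand, which had 0 counts, and reads in the overlap could be given to neither. *Bbc3* (chromosome 7, 16308393 to 16318205, plus strand) encodes PUMA, a BH3-only protein that frees BAX from its inhibitors. It was at 24.6, 25.2 and 24.7 CPM in C75S and at 25.4, 21.2 and 24.6 CPM in WT, which gave a log2 estimate of 0.06 (SE 0.09; adjusted p = 0.826 by edgeR).

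2 members are receptors of the tumour necrosis factor receptor family. *Fas* (chromosome 19, 34290666 to 34327772, plus strand), a death receptor to which hepatocytes are sensitive, was at 13.1, 16.6 and 14.0 CPM in C75S and at 14.1, 13.1 and 14.4 CPM in WT. C75S replicate 2 was the high library, and without it the log2 estimate of 0.08 (SE 0.11; adjusted p = 0.823 by edgeR) became -0.03. *Eda2r* (chromosome X, 97333840 to 97377216, minus strand), the receptor for ectodysplasin A2, was at 43.3, 46.3 and 42.3 CPM in C75S and at 44.7, 39.8 and 47.8 CPM in WT. The WT values spanned those of C75S, and the log2 fold change was 0.00 (-0.0021, SE 0.07, edgeR adjusted p = 0.993).

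The remaining pair restrain growth signals or modulate RNA. *Phlda3* (chromosome 1, 135766119 to 135769136, plus strand), which competes with AKT for membrane lipids, was at 26.6, 30.7 and 25.7 CPM in C75S and at 35.4, 28.3 and 28.96 CPM in WT. Its log2 fold change was -0.16 (SE 0.09, edgeR adjusted p = 0.495), and without WT replicate 1, the highest library, it was -0.05. *Zmat3* (chromosome 3, 32334792 to 32366014, minus strand), a zinc finger protein that binds RNA and affects splicing and mRNA stability, was at 92.7, 98.1 and 92.7 CPM in C75S and at 98.4, 92.5 and 92.7 CPM in WT. Its means, 94.5 ± 3.12 and 94.5 ± 3.33 CPM (SD, n = 3 each), were the closest of the 10 genes (edgeR adjusted p = 0.9997). The 95% interval of the *Zmat3* change ran from -7.28% to 7.84%, and for none of the 9 uncalled genes did an interval reach beyond -21.3% or 23.5%.

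**Figure D3:**
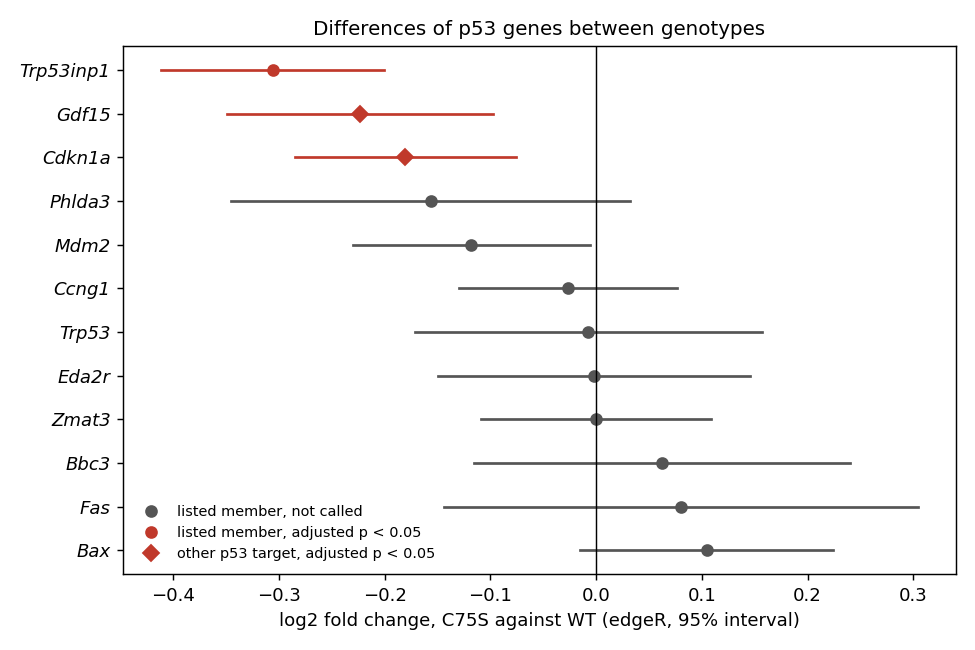
Log2 fold change of C75S against WT with its 95% interval from edgeR for the 10 genes (circles) and for *Cdkn1a* and *Gdf15*, the 2 other p53 targets called (diamonds); red marks an adjusted p under 0.05. *Trp53inp1*, *Gdf15* and *Cdkn1a* lie at -0.31, -0.22 and -0.18, and the other intervals, except that of *Mdm2*, include 0.

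The 10 genes did not vary as a block across the 6 libraries. *Trp53* and *Zmat3* had a Pearson correlation of 0.85 in log2 CPM, *Ccng1* and *Phlda3* 0.85 and *Mdm2* and *Ccng1* 0.85, whereas *Trp53* and *Mdm2* had 0.47, *Trp53* and *Trp53inp1* -0.06, and *Bax* and *Trp53inp1* -0.71. These values rest on 6 libraries that share their depth scaling. Without WT replicate 1 the correlation was 0.73 for *Trp53* and *Zmat3*, 0.48 for *Ccng1* and *Phlda3*, 0.51 for *Mdm2* and *Ccng1*, -0.26 for *Trp53* and *Mdm2*, -0.59 for *Trp53* and *Trp53inp1* and -0.74 for *Bax* and *Trp53inp1*. Among 9361 other genes with a mean of at least 5 CPM, left after setting aside predicted genes and unnamed clones, the pattern most like that of *Trp53* was that of *Iqsec2* (r = 0.999), followed by *Cnpy2* (0.994). For *Trp53inp1* the most similar were *Zmiz1* (0.991), *Amdhd2* (0.987) and *Plekhh1* (0.985). *Plekhh1* was itself called lower in C75S (log2 fold change -0.87, edgeR adjusted p = 2.04e-05), *Amdhd2* just missed the threshold at 0.0519, and *Zmiz1* did not pass at 0.164. Genes picked for likeness to *Trp53inp1* over both genotypes are lower in C75S by that choice, so these values are no separate evidence. The highest of 9361 correlations over 6 libraries are also high by selection. The spread between WT replicates ranged from a coefficient of variation of 0.21% in *Trp53inp1* to 12.8% in *Trp53*, beside a median of 5.61% over the 9636 genes of at least 5 CPM. The 0.21% rests on 3 libraries and is below the counting error that 17763 to 18258 counts carry. It is therefore not a measure of how steady *Trp53inp1* is in WT.

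The regulators of p53 showed no called gene. Of 28 listed regulators 25 could be tested, 9 with estimates above 0 and 16 below, with a median log2 fold change of -0.04, 0 called and 0 at an unadjusted p under 0.05. That median was -0.0063 without WT replicate 3, -0.02 without C75S replicate 2 or C75S replicate 3, and -0.01 with unstranded counts. The most abundant were *Hipk2*, a kinase that phosphorylates p53, at 676 ± 8.88 (C75S) and 698 ± 9.58 CPM (WT), and *Huwe1*, a ubiquitin ligase with p53 among its substrates, at 650.3 ± 3.47 and 647 ± 4.29 CPM (SD, n = 3 each). Their edgeR adjusted p-values were 0.750 and 0.973. *Mdm4*, the partner of MDM2 that masks the activation domain of p53, was at 57.7 ± 3.89 (C75S) and 61.96 ± 3.91 CPM (WT), a log2 estimate of -0.10 (adjusted p = 0.525 by edgeR).

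Among target genes of cell cycle arrest 9 of 12 could be tested, and 1 was called. *Cdkn1a* (ENSMUSG00000023067, chromosome 17) encodes the p21 inhibitor of cyclin-dependent kinases and is the classic p53 target. The element at its outermost start is printed above. *Cdkn1a* was at 322, 328 and 345 CPM in C75S and at 393, 375 and 359 CPM in WT. Every C75S library lay below every WT library. It fell by 0.18 on the log2 scale (SE 0.05, edgeR adjusted p = 0.0494), and the call was marginal: it was lost in 8 of 14 alternative fits, with edgeR without C75S replicate 1 (adjusted p = 0.177), C75S replicate 2 (0.164), WT replicate 1 (0.177) or WT replicate 2 (0.177) among them. The list's median was -0.09, with 4 genes above 0 and 5 below, but WT replicate 1 was the highest library in 5 of the 9 genes. The median was -0.0058 without that library, -0.03 without C75S replicate 3 and -0.15 without WT replicate 3. By edgeR 3 genes higher and 2 lower in C75S had an unadjusted p under 0.05, beside 13.4% of all genes. The kinases *Plk2* and *Plk3*, named here after their values were seen, were at log2 estimates of 0.12 and 0.15 (edgeR, adjusted p = 0.259 and 0.137). The largest estimate of the list was 0.64 for *Sfn*, at 28 to 74 counts per library (edgeR adjusted p = 0.308). Estimates within the list thus went both ways.

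Among 12 target genes of cell death all 12 could be tested; 10 had estimates above 0, beside 49.1% of all tested genes, and 0 were called, with 2 at an unadjusted p under 0.05 (*Perp* and *Tnfrsf10b*). The median log2 fold change was 0.12. *Ei24*, the most abundant, was at 209 ± 4.03 (C75S) and 212 ± 3.91 CPM (WT), and *Perp*, a membrane protein of desmosomes, at 175 ± 3.63 and 161 ± 4.53 CPM (SD, n = 3 each; edgeR adjusted p = 0.895 and 0.208). The genotypes did not overlap in 5 of the 12 genes, C75S being higher in each, as in 9.02% of all tested genes. One was *Tnfrsf10b*, a death receptor named here after its values were seen, at 25.1 ± 0.45 and 21.2 ± 0.77 CPM (edgeR adjusted p = 0.126). Of the 6 DNA repair targets 5 had estimates below 0, with a median of -0.09 and 0 called, also 0 at an unadjusted p under 0.05. Without WT replicate 1 the median was -0.04. *Xpc* was at 80.9 ± 0.38 (C75S) and 86.6 ± 6.19 CPM (WT; SD, n = 3 each), and the *Ercc5* libraries lay at 49.2 to 50.5 CPM in C75S and 49.9 to 56.1 CPM in WT.

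Of 18 targets in metabolism and stress 16 could be tested; 7 had estimates above 0, the median was -0.00 (-0.0036) and 1 was called. That median changed sign with single libraries, at 0.02 without WT replicate 1 and 0.04 without WT replicate 2. *Gdf15* (ENSMUSG00000038508), a secreted stress hormone, was at 94.5, 97.0 and 113.0 CPM in C75S and at 123, 119 and 113.1 CPM in WT, the highest C75S and the lowest WT library differing by less than 1 CPM. It fell by 0.22 on the log2 scale (SE 0.06, edgeR adjusted p = 0.0438). The call was lost in 7 of 14 alternative fits, in edgeR without C75S replicate 1 (adjusted p = 0.228), C75S replicate 2 (0.191), WT replicate 1 (0.165), WT replicate 2 (0.166) or WT replicate 3 (0.0523) and in the 2 other tools. *Lpin1*, a phosphatidate phosphatase named here after its values were seen, had a larger estimate of -0.36 but a WT replicate 1 at 157 CPM against 206 and 196 CPM in the other WT libraries (edgeR adjusted p = 0.0684).

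**Figure D4:**
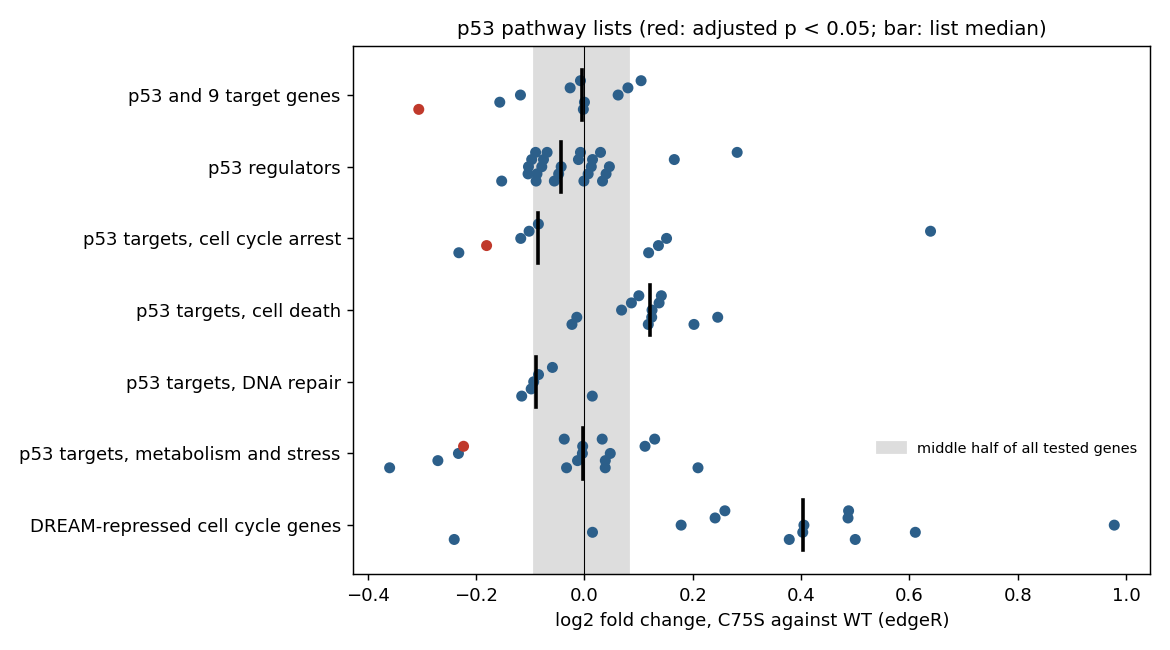
Log2 fold change of C75S against WT for each tested gene of the 10 genes and 6 pathway lists; red points have an edgeR adjusted p under 0.05, black bars are list medians and the grey band holds the middle 50% of all tested genes. The medians run from -0.09 for DNA repair and arrest targets to 0.12 for cell death targets and 0.40 for the cell cycle genes, and there is 1 red point each among the 10 genes, the arrest targets and the metabolic targets.

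Cell cycle genes that p53 is known to repress through p21 and the DREAM complex were low in all libraries, their 15 genes summing to 42.9 to 56.0 CPM in C75S and 38.6 to 40.8 CPM in WT. Of the 13 tested, 12 had estimates above 0, beside 49.1% of all tested genes, with a median log2 fold change of 0.40. None was called by edgeR (0 of 13), and 5 had an unadjusted p under 0.05, beside 13.4% of all genes. The genotypes did not overlap in 5 of the 13, C75S being higher in each, as in 9.02% of all tested genes. In 2 of the alternative fits, with no filter and without C75S replicate 3, 1 gene of the list was called higher in C75S. C75S replicate 1 was the highest library in 8 of the 13 genes, beside 17.7% of all genes, and in 3 of the 4 tested cholangiocyte markers, while C75S replicate 3 was the highest in 0 of the 13. The median was 0.30 without C75S replicate 1 and 0.56 without C75S replicate 3. *E2f1*, the most abundant, was at 8.60 ± 0.49 (C75S) and 8.52 ± 0.09 CPM (WT), and *Prc1*, a protein of the mitotic spindle midzone, at 6.93 ± 1.13 and 4.88 ± 0.85 CPM (SD, n = 3 each; edgeR adjusted p = 0.975 and 0.136). *Ccna2*, named here after its values were seen, came nearest to the threshold at 6.49 ± 1.03 and 4.25 ± 0.69 CPM (edgeR adjusted p = 0.0582).

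**Figure D5:**
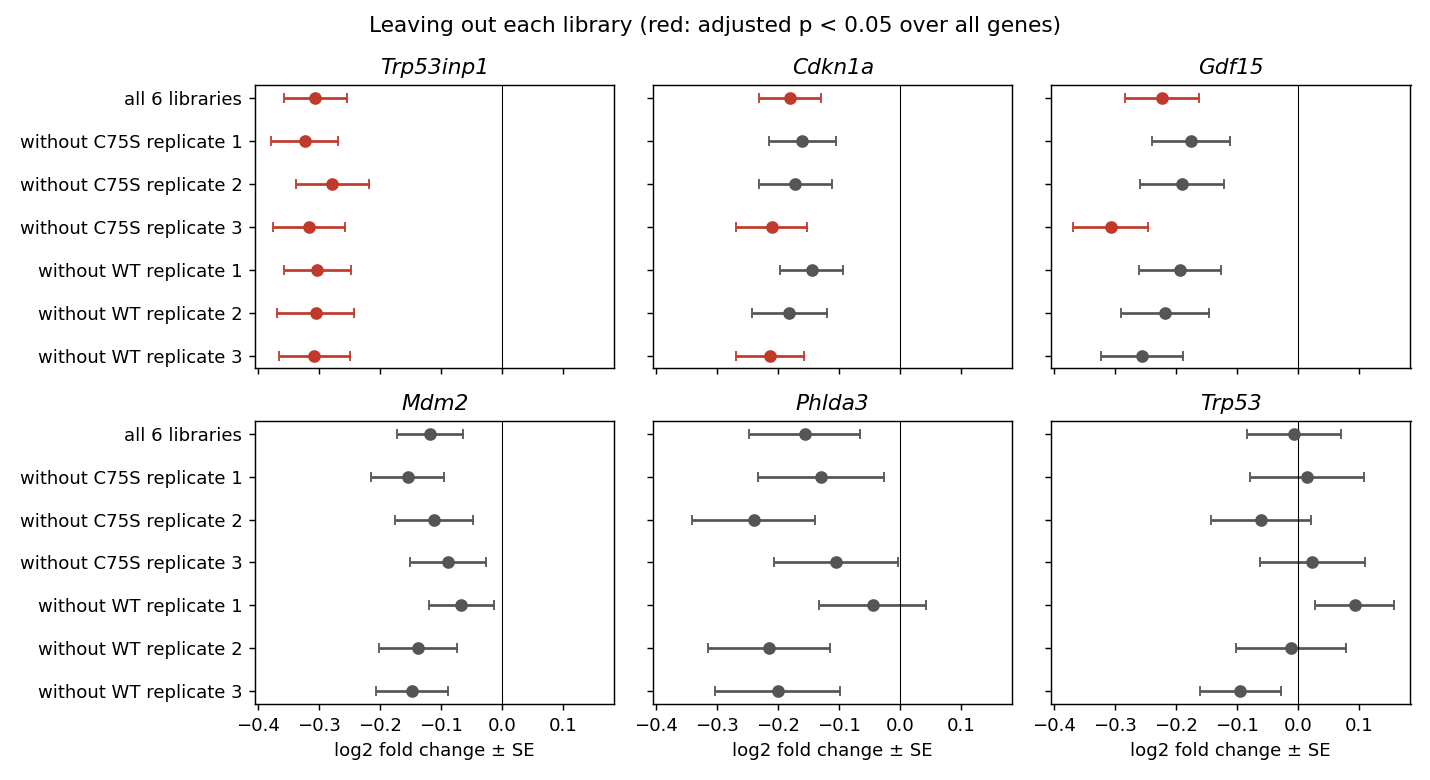
Log2 fold change ± SE from edgeR for 6 p53 genes with all 6 libraries and with each library left out; red marks an adjusted p under 0.05 over all genes. *Trp53inp1* keeps its red mark in every row, between -0.32 and -0.28, *Cdkn1a* keeps it without C75S replicate 3 or WT replicate 3 and *Gdf15* without C75S replicate 3, and the estimates of *Mdm2*, *Phlda3* and *Trp53* shift upward without WT replicate 1.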

How the data were processed

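The deposited files hold raw read counts per Ensembl gene in the layout of STAR, unstranded and for each strand. Per the submitters' processing notes, Trim Galore 0.6.6, STAR 2.7.9a and edgeR 3.36.0 were used with mm10/GRCm38; the annotation release is not given in the sources used here. Reverse-strand counts were used (33.3 times the forward-strand sum). Multimapping reads (17.98% to 18.54%) and ambiguous reads were not on genes. Genes were filtered with filterByExpr (minimum count 10, minimum total 15), scaled by TMM, and fitted on genotype with the robust quasi-likelihood method of edgeR 4.0.16 under R 4.3.3. SE was the log2 fold change over the square root of F. Exon lengths and positions are GENCODE M21 (GRCm38), promoters RefSeq; copies were sought with BLAST 2.17.0. All 144 listed genes matched by symbol.

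The 10 genes and the lists were chosen with earlier results of these data known. Text names all 10, called genes of each pathway list (otherwise its 2 most abundant), and the 3 most similar patterns for *Trp53* and called members. One such gene and 1 marker are not reported here. The fit was tested on simulated data with 200 known changes. At 1.25-fold it recovered 48.5% of them, and 8.49% of its calls were false. At 1.5-fold these shares were 74% and 6.33%, and without any change 0 genes were called. Changes as small as most of those in this report can therefore be missed. Alternatives were DESeq2 1.42.0, limma-voom (limma 3.58.1), scaling by RLE, by upper quartile or by library size alone, no filter, unstranded counts, a replicate block and leaving out each library.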

Additional observations from a re-analysis of the deposited data

How the results depend on the processing

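The number of the 10 genes called was 1 in all 14 alternatives, *Trp53inp1* in each. The count over all genes, 396, lay between 372 and 573 in the alternatives with 6 libraries and between 201 (without WT replicate 2) and 355 (without WT replicate 1 or C75S replicate 3) when a library was left out; it was 246 without WT replicate 3 and 253 without C75S replicate 1. Estimates near 0 changed sign without becoming calls. With library-size scaling *Trp53* was at 0.003449, *Zmat3* at 0.01155 and *Eda2r* at 0.009898; with limma-voom *Zmat3* was at 0.0005073 and *Eda2r* at 0.002398; *Zmat3* was at 2.375e-05 with RLE scaling and 3.313e-05 with DESeq2. Leaving out libraries gave ranges of -0.09472 to 0.09213 for *Trp53*, -0.04658 to 0.0125 for *Ccng1*, -0.01232 to 0.1154 for *Bbc3*, -0.02606 to 0.1479 for *Fas*, -0.0278 to 0.03121 for *Zmat3* and -0.07064 to 0.0598 for *Eda2r*. The replicate block put *Zmat3* at 3.704e-05 and *Eda2r* at 0.0004781 and changed no call of the 10 genes; with the block 480 genes were called in all. The correlation of *Trp53* and *Mdm2* was -0.2571 without WT replicate 1, an alternative chosen after seeing the data. The labels name no pairs, so the numbers were not taken as pairs. Same-numbered libraries deviated with correlations of -0.040 to 0.025, and differently numbered ones with -0.044 to 0.024. With 3 libraries a genotype such values cannot exclude pairing. The calls of *Cdkn1a* and *Gdf15* were lost in 8 and 7 of 14 alternatives, and the cause was not tested; without the block or a left-out library their highest adjusted p-values were 0.0564 (*Cdkn1a*, library-size scaling) and 0.0640 (*Gdf15*, DESeq2). Over all tested genes the median estimate lay between -0.00323 and 0.00895. Depth and 3 libraries a genotype limit *Fas* most, at 229 to 350 counts.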
